A study of Homo sapiens with 40 samples.

Results

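Epithelial identity genes are genes whose products build and maintain an epithelial sheet: the keratin filaments, the junctions between cells, the regulators that keep those genes on, a surface protease system and the laminin under the cells. A list of 33 such genes was taken by symbol, and each of the 33 was found once among the 62486 gene IDs of the count table. The list did not depend on measured values. It was drawn up with an earlier analysis of these data known, so its direction of change is not independent evidence.

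The cells were A549, an established human lung adenocarcinoma line. RNA-seq covered control (CT) cells and SETDB1 knockout (KO) cells, with 3 libraries per genotype. The knockout was made with CRISPR/Cas9 from the PX458 plasmid, and both genotypes were grown in DMEM with serum and were not otherwise treated, per the labels. SETDB1 is an enzyme that methylates histone H3 at lysine 9, which marks silenced chromatin. The labels do not say whether the knockout is a single clone, or whether replicate libraries came from separate cultures, so p-values measure only the spread between these libraries, which may be technical. Library totals ranged from 18065062 to 48364919 counts. SETDB1 itself had 37.5, 39.6 and 38.7 CPM in control and 23.4, 21.2 and 21.1 CPM in KO, where CPM is the count scaled to the TMM library size, so its transcript was lower but still present in KO.

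As background, epithelial cells are held together by tight junctions at the top of the lateral membrane, by adherens junctions built on E-cadherin, and by desmosomes that anchor keratin filaments. Grainyhead-like and OVOL transcription factors and the ESRP splicing factors maintain this state. ZEB, SNAI and TWIST factors repress it in epithelial-mesenchymal transition (EMT), in part through E-box elements in epithelial promoters. A549 is known as a line with mixed epithelial and mesenchymal features.

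Most of the epithelial genes that could be tested were higher in KO. Of the 33 genes, 27 passed the expression filter, and 21 of these were higher and 3 lower in KO at a Benjamini-Hochberg adjusted p under 0.05 in edgeR's quasi-likelihood test, which was adjusted over all 17767 genes tested. The background was 32.8% of all tested genes called higher and 30.0% called lower, or 62.8% in either direction. At least 2-fold higher were 13 genes, where the background was 9.86%, and at least 2-fold lower was 1 gene, LAMA3, where it was 4.85%. The median log2 fold change was 0.95 over the 27 genes and 0.0038 over all genes tested. For 25 of the 27 every KO library lay to 1 side of every control library in CPM, against 65.8% of all tested genes. In such bulk libraries, fewer cells of a type and less RNA per cell cannot be told apart. A gene that passes the filter only through its higher genotype is selected towards a difference, so its call depends partly on the filter. CDH3, CLDN7 and MUC1 reached the filter, a level of 0.426 CPM before TMM in at least 3 libraries, through the KO libraries only, and ESRP2 through neither genotype alone. Among the other 23 genes, 19 were higher and 3 lower, with 11 at least 2-fold higher. None of these counts describes the 6 genes that were not tested, which are given below by their counts. The 33 genes together took 0.565% to 0.623% of all counts in control libraries and 1.27% to 1.37% in KO libraries.

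**Figure D1:**
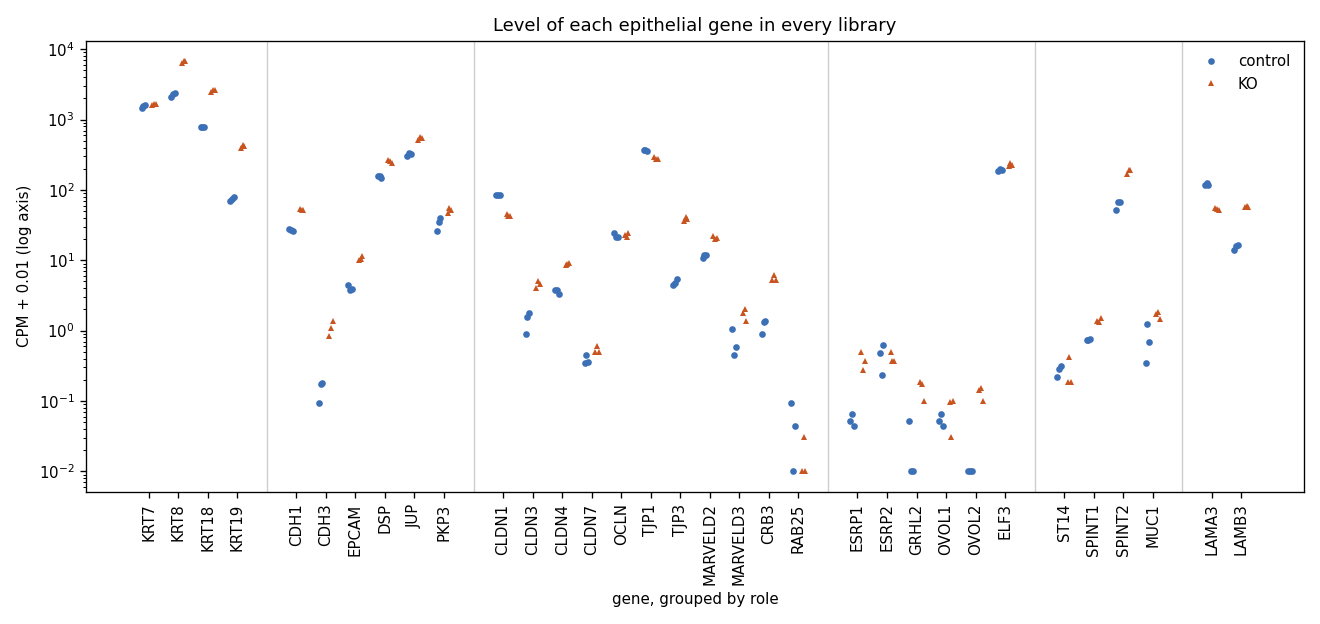
CPM of each of the 33 epithelial genes in every library, on a log axis after adding 0.01 so that zeros can be drawn, with control libraries as circles and KO libraries as triangles, and vertical lines between roles. KRT8, KRT18 and KRT19 in KO lie well above control, CLDN1, TJP1 and LAMA3 lie below it, and most regulators lie near the bottom of the axis in both genotypes.

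Keratins are the intermediate filament proteins of epithelia, and a filament pairs a type I chain (KRT18, KRT19) with a type II chain (KRT7, KRT8). All 4 listed keratins were called higher in KO, by very different amounts, against a background of 32.8% of all tested genes. Their summed counts went from 0.430% to 0.481% of each control library to 1.09% to 1.18% of each KO library.

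KRT8 (ENSG00000170421, chromosome 12) was at 2116, 2310 and 2386 CPM in the control libraries and at 6297, 6786 and 6700 CPM in the KO libraries. Every KO library lay far above every control library, and the log2 fold change was 1.54 (SE 0.046, edgeR adjusted p 7.5e-21). KRT18 (ENSG00000111057, chromosome 12), its usual partner in simple epithelia, was at 777.7, 780.5 and 777.7 CPM in control and 2456, 2664 and 2630 CPM in KO. The control libraries were nearly identical, and the log2 fold change was 1.73 (SE 0.042, edgeR adjusted p 2.2e-23). KRT19 (ENSG00000171345, chromosome 17), a small type I keratin, was at 68.8, 74.7 and 78.4 CPM in control and 393, 431 and 425 CPM in KO. It had the largest change of the 4, a log2 fold change of 2.49 (with SE 0.050, edgeR adjusted p 2.6e-24).

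KRT7 (ENSG00000135480, chromosome 12), the type II keratin of glandular epithelia, was at 1465, 1573 and 1611 CPM in control and at 1611, 1682 and 1692 CPM in KO. The lowest KO library and the highest control library were almost level, and the log2 fold change of 0.10 (SE 0.042) had an edgeR adjusted p of 0.039. This call was lost under upper quartile scaling (adjusted p 0.17), under a CPM filter (0.067) and in DESeq2 (0.054). It was also lost without control replicate 1 (0.19), KO replicate 2 (0.11) or KO replicate 3 (0.13). KRT7, KRT8 and KRT18 lie on chromosome 12, where the median over 854 placed genes was 0.37. Set against that median, the log2 fold changes of KRT8 and KRT18 were 1.17 and 1.36, and that of KRT7 was -0.27.

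Ratios of counts within a library do not depend on how libraries are scaled. They are not per transcript length, so only their change between genotypes is read. With 3 libraries against 3, the exact two-sided permutation test cannot give a p under 0.10, or 0.14 after Benjamini-Hochberg adjustment over the 11 ratios computed. The KRT7 to KRT8 ratio was 0.692, 0.681 and 0.675 in control and 0.256, 0.248 and 0.253 in KO, 2.71-fold lower in KO (exact permutation p = 0.10). The KRT8 to KRT18 ratio went from 2.72, 2.96 and 3.07 to 2.56, 2.55 and 2.55 (exact permutation p = 0.10). The balance of this type II and type I pair lay slightly lower in every KO library than in any control library, a far smaller shift than that of KRT7 to KRT8. The KRT19 to KRT18 ratio went from 0.0885, 0.0958 and 0.101 to 0.160, 0.162 and 0.162 (exact permutation p = 0.10).

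KRT8 and KRT18 have many processed pseudogenes in the table, 51 and 67. The counts assigned to the KRT8 pseudogenes came to 1.42% to 1.49% of the KRT8 count in control and 0.772% to 1.04% in KO. Those of KRT18 came to 1.13% to 1.25% and 0.762% to 0.893%. Of the 23 pseudogenes of both that were tested, 14 were higher and 2 lower in KO. However, 8 of them reached the filter through KO libraries only, 2 through control libraries only and 3 through neither genotype alone. Among the other 10, 6 were higher and 1 lower, where the background was 32.8% and 30.0%. How shared reads were counted is not stated, but the counts outside the parent genes were a small fraction of theirs. KRT7-AS, which overlaps KRT7, went the other way, from 45.8 ± 3.82 to 31.9 ± 1.60 CPM (SD, n = 3; log2 fold change -0.52, SE 0.061, edgeR adjusted p 3.4e-08). The strand setting of the counting is not stated, so reads of the pair cannot be told apart with certainty.

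The other keratins in the table did not move one way. Of 21 listed, 10 were tested, with 6 (60%) higher and 4 (40%) lower, where the background was 32.8% and 30.0%. Their median log2 fold change was 0.99. However, 3 of the 10 reached the filter through KO libraries only, and the other 7 gave 3 higher and 4 lower. KRT20, a keratin of intestinal and urothelial cells, rose from 0.489 ± 0.138 to 6.45 ± 0.621 CPM, and reached the filter through its KO libraries only. KRT15, a keratin of basal cells, rose from 2.47 ± 0.283 to 21.6 ± 0.795 CPM, and KRT4, a keratin of mucosal squamous epithelium, from 13.9 ± 1.37 to 71.5 ± 4.97 CPM (SD, n = 3 each). Their log2 fold changes were 3.63, 3.14 and 2.36, and that of KRT4 was 2.00 against the median of chromosome 12. KRT81 and KRT86, keratins of hair, fell from 2490.2 ± 197.4 to 821 ± 43.0 CPM and from 23.4 ± 1.93 to 9.33 ± 0.639 CPM. Their log2 fold changes were -1.60 and -1.32, or -1.97 and -1.69 against the median of chromosome 12. KRT81 and KRT86 are close paralogs, so reads could be split between them.

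All 6 genes of cell adhesion and the desmosome were called higher, against a background of 32.8% of all tested genes. CDH3 among them was tested only through its KO libraries. CDH1 (ENSG00000039068, chromosome 16), which encodes E-cadherin, the adhesion receptor of the adherens junction, was at 27.9, 27.2 and 26.3 CPM in control and 53.9, 51.7 and 51.6 CPM in KO. The groups were far apart and tight, with a log2 fold change of 0.95 (with SE 0.054, edgeR adjusted p 8.4e-15), a 1.93-fold rise. CDH3 (ENSG00000062038, chromosome 16), which encodes P-cadherin, had 2, 3 and 5 counts in control and 19, 54 and 31 counts in KO. These are 0.0850, 0.166 and 0.172 CPM against 0.829, 1.10 and 1.38 CPM, with a log2 fold change of 2.92 (with SE 0.37, edgeR adjusted p 1.1e-07). No control library reached the filter, so this gene could be tested only because it was high in KO, and under a filter of at least 1 CPM in at least 3 libraries it was not tested. Its level in KO was still low. EPCAM (ENSG00000119888, chromosome 2), the epithelial cell adhesion molecule, was at 4.37, 3.75 and 3.92 CPM in control and 10.2, 10.5 and 11.5 CPM in KO. Its log2 fold change was 1.41 (SE 0.10, edgeR adjusted p 1.4e-12). Over 1049 placed genes of chromosome 2 the median was -0.54, and against that median EPCAM had a log2 fold change of 1.95.

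In the desmosome, the plaque that ties keratin filaments to the membrane, DSP (ENSG00000096696, chromosome 6) encodes desmoplakin, the link to keratin. It was at 158, 159.6 and 149 CPM in control and at 266, 256 and 245 CPM in KO. JUP (ENSG00000173801, chromosome 17) encodes plakoglobin, which is shared by desmosomes and adherens junctions. It was at 307, 339 and 327 CPM in control and at 505, 565 and 548 CPM in KO. The log2 fold changes of DSP and JUP were 0.72 (SE 0.044) and 0.73 (SE 0.046), with edgeR adjusted p of 3.6e-14 and 1.4e-13. DSP-AS1, antisense to DSP, had a mean of 0.712 CPM in control and 1.14 CPM in KO (log2 fold change 0.61, edgeR adjusted p 0.032). The JUP to DSP ratio was 1.94, 2.12 and 2.19 in control and 1.90, 2.21 and 2.23 in KO, so the ranges overlapped (exact permutation p = 0.80). PKP3 (ENSG00000184363, chromosome 11), which encodes plakophilin 3, was at 26.5, 35.4 and 39.6 CPM in control and 47.0, 55.3 and 52.4 CPM in KO. Control replicate 1 was the lowest, and the log2 fold change was 0.61 (SE 0.16, edgeR adjusted p 0.022). That call was lost without control replicate 2, KO replicate 2 or KO replicate 3 (adjusted p 0.061, 0.087 and 0.073).

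Among 13 other desmosome genes, 8 were tested, with a median log2 fold change of 0.64. Of these, 6 (75%) were higher and 1 (12.5%) lower, where the background was 32.8% and 30.0%. DSC2 and DSC3, desmosomal cadherins, rose from 5.09 ± 0.588 to 28.5 ± 2.33 CPM and from 4.43 ± 0.248 to 12.6 ± 0.989 CPM (SD, n = 3), with log2 fold changes of 2.50 and 1.52. PPL, which encodes periplakin, rose from 17.7 ± 2.42 to 49.97 ± 1.54 CPM, and PKP2, which encodes plakophilin 2, from 20.1 ± 0.990 to 35.1 ± 1.42 CPM. PKP2, with a log2 fold change of 0.79, lies on chromosome 12, where the median was 0.37. PKP4 fell by 0.86 on the log2 scale, from 86.8 ± 3.05 to 47.9 ± 0.837 CPM. It lies on chromosome 2, and against the median of that chromosome its log2 fold change was -0.32. Of the 11 other adherens junction genes, 3 (27.3%) were higher and 4 (36.4%) lower, near the background of 32.8% and 30.0%. Their median log2 fold change was 0.050. NECTIN4, which was lower, reached the filter through its control libraries only, and the other 10 genes gave 3 higher and 3 lower. LIMA1, an actin-binding protein, rose from 7.84 ± 0.824 to 54.6 ± 2.12 CPM, and NECTIN2 and CTNNA1 rose by 0.71 and 0.36 on the log2 scale. LIMA1 lies on chromosome 12 and NECTIN2 on chromosome 19, where the medians were 0.37 and 0.34. NECTIN3 and EPB41L5 fell by 0.88 and 0.66 on that scale, but EPB41L5 is a chromosome 2 gene with a log2 fold change of -0.12 against its chromosome's median. Of the catenins that bind E-cadherin, CTNNB1 had a log2 fold change of -0.19 (edgeR adjusted p 0.00014) and CTNND1 of 0.13 (edgeR adjusted p 0.12).

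The genes of the tight junction and of apical polarity divided. Of 11 listed, 10 were tested, with 6 (60%) higher, 2 (20%) lower and 2 not called, where the background was 32.8% higher and 30.0% lower. CLDN7, which was not called, reached the filter through its KO libraries only. The claudins, whose strands seal the space between cells, held members of each kind. CLDN1 (ENSG00000163347, chromosome 3) was at 84.2, 84.2 and 84.7 CPM in control and at 45.1, 42.2 and 43.0 CPM in KO. It fell by 0.96 on the log2 scale (SE 0.048, edgeR adjusted p 4.9e-16), and the genotypes were far apart. CLDN3 (ENSG00000165215, chromosome 7) was at 0.892, 1.55 and 1.79 CPM in control and 4.06, 5.07 and 4.54 CPM in KO. CLDN4 (ENSG00000189143), its neighbour on chromosome 7, was at 3.74, 3.75 and 3.33 CPM in control and 8.47, 8.83 and 9.05 CPM in KO. Neither overlapped between genotypes, and the log2 fold changes were 1.70 (SE 0.17) and 1.29 (SE 0.11), with edgeR adjusted p of 3.4e-09 and 2.0e-11. The CLDN4 to CLDN3 ratio ran from 1.87 to 4.19 in control and from 1.74 to 2.09 in KO, so these ranges overlapped (exact permutation p = 0.30). CLDN7 (ENSG00000181885, chromosome 17) had 8, 8 and 10 counts in control and 11, 29 and 11 in KO. Its log2 fold change of 0.54 (SE 0.33) did not pass (edgeR adjusted p 0.16).

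TJP1 and TJP3 encode ZO-1 and ZO-3, scaffold proteins under the tight junction, and they moved in opposite directions. TJP1 (ENSG00000104067, chromosome 15) was at 370.4, 364 and 355 CPM in control and at 294, 273 and 277 CPM in KO, a log2 fold change of -0.37 (with SE 0.041, edgeR adjusted p 1.1e-08). TJP3 (ENSG00000105289, chromosome 19) was at 4.42, 4.803 and 5.32 CPM in control and at 36.8, 41.5 and 38.8 CPM in KO. Its log2 fold change of 3.00 (with SE 0.082, edgeR adjusted p 3.7e-22), was an 8.02-fold rise. The TJP1 to TJP3 count ratio was 83.8, 75.8 and 66.7 in control and 8.01, 6.59 and 7.15 in KO, 10.4-fold lower in KO with no overlap (exact permutation p = 0.10).

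The MARVEL proteins span the membrane at tight junctions, and occludin is the best known of them. OCLN (ENSG00000197822, chromosome 5) was at 24.5, 21.3 and 21.4 CPM in control and 22.8, 21.8 and 24.6 CPM in KO, and the genotypes overlapped (log2 fold change 0.032, SE 0.069, edgeR adjusted p 0.70). Its near-identical copy OCLNP1 held only 2 counts over all 6 libraries. MARVELD2 (ENSG00000152939, chromosome 5), which encodes tricellulin, the protein of corners where cells meet, was at 10.9, 12.0 and 12.1 CPM in control and 21.9, 19.9 and 21.0 CPM in KO. Its log2 fold change was 0.84 (SE 0.074, edgeR adjusted p 8.6e-11). MARVELD3 (ENSG00000140832, chromosome 16) was at 1.06, 0.442 and 0.584 CPM in control and 1.75, 2.01 and 1.38 CPM in KO, with a log2 fold change of 1.33 (with SE 0.25, edgeR adjusted p 4.8e-05).

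CRB3 (ENSG00000130545, chromosome 19) encodes an apical polarity protein of the Crumbs complex. It was at 0.892, 1.32 and 1.34 CPM in control and 5.19, 6.19 and 5.21 CPM in KO, a log2 fold change of 2.25 (with SE 0.16, edgeR adjusted p 1.1e-12). TJP3 and CRB3 lie on chromosome 19, where the median over 1137 placed genes was 0.34, and against that median their log2 fold changes were 2.66 and 1.91. RAB25 (ENSG00000132698, chromosome 1), an epithelial GTPase of membrane recycling, was not tested. It had 2, 0 and 1 counts in control and 0, 1 and 0 in KO, so no difference was detectable at this depth.

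Promoter sequences are shown for tight junction genes and laminin chains that moved apart. RefSeq windows on GRCh38.p14, from 250 bases before to 50 bases after each start, were matched for 18 of the 33 genes, in 29 windows. The E-box letters CACCTG, which ZEB and SNAI factors read, were searched on both strands. The 250 bases before the start are printed 5′ to 3′ on the gene's strand, with each match of CACCTG or its reverse complement in capitals. CRB3 and TJP3 are shown as genes that rose at the tight junction and CLDN1 as the claudin that fell.
CRB3, chr19:6464021-6464270, plus strand: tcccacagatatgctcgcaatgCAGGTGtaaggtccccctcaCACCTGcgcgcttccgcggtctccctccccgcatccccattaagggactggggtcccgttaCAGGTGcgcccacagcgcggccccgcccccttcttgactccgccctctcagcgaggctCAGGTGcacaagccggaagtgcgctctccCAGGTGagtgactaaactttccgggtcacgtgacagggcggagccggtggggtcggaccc
TJP3, chr19:3721487-3721736, plus strand: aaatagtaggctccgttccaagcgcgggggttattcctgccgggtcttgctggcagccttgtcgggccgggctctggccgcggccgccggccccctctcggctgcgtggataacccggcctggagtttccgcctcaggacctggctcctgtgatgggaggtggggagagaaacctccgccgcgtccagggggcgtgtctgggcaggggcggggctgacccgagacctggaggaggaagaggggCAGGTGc
CLDN1, chr3:190322447-190322696, minus strand: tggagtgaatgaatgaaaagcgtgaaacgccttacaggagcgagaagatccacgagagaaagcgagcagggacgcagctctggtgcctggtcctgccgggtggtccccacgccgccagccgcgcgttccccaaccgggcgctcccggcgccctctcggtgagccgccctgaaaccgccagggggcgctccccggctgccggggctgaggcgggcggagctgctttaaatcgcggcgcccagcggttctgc
The CRB3 window holds 5 matches, this TJP3 window 1 (its other window none) and the CLDN1 window none. CLDN3 and CLDN4, the claudins that rose, also hold none before the start.

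Over whole windows, 14 of the 18 matched genes (77.8%) held CACCTG, against 24.1% of the 27305 genes of the table, and 16 of 29 windows (55.2%) did, against 20.6% of 35116. The genes with a match included ones that rose (CRB3, TJP3, LAMB3, DSP, JUP, SPINT1, MUC1), ones that fell (TJP1, LAMA3) and OCLN, which did not pass the test. KRT8, CLDN4 and MARVELD2, which rose, and CLDN1, which fell, held no match. The 29 windows were richer in G and C, with a median of 65.7% against 58.7% over all windows. The SP and KLF letters GGGCGG were in 15 of the 18 genes (83.3%, against 48.3%), the OVOL letters CCGTTA in 2 (11.1%, against 3.80%) and the Grainyhead letters AACCGGTT in none (against 0.165%). Of the 30 CACCTG matches, 0 overlapped another of these motifs. Some windows of a gene overlap, so the same 2 MUC1 sites were counted in each of its windows. A match of letters does not show a bound site.

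In the wider set of 33 tight junction and polarity genes outside the list, 21 were tested, and their median log2 fold change was 0.22. Of these, 12 (57.1%) were higher and 5 (23.8%) lower, where the background was 32.8% and 30.0%. The filter was reached by 2 through KO libraries only and by 1 through control libraries only. Among the other 18 genes, 10 were higher and 4 lower. LSR, a protein of tricellular corners, rose from 9.86 ± 1.11 to 31.6 ± 2.48 CPM, with a log2 fold change of 1.69. It lies on chromosome 19, where the median was 0.34. F11R, LLGL2 and PARD3, which act in junction assembly and polarity, rose by 0.65, 0.64 and 0.62 on the log2 scale. CLDN2, which forms a cation pore, fell by 1.62 on the log2 scale, from 36.8 ± 1.85 to 12.0 ± 0.234 CPM. With CLDN1 it was a claudin that fell while CLDN3 and CLDN4 rose.

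**Figure D2:**
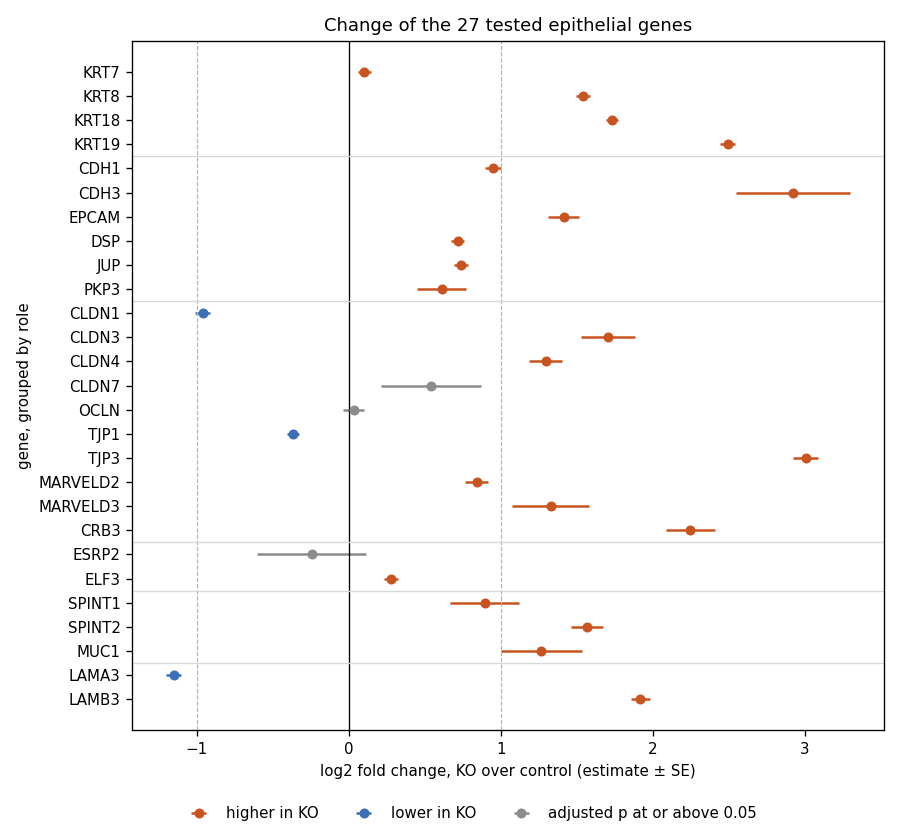
The log2 fold change of KO over control for the 27 tested epithelial genes, grouped by role, with 1 SE on each side and dashed lines at 2-fold. All keratin and adhesion genes lie right of 0, whereas CLDN1, TJP1 and LAMA3 lie left of it.

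Of the regulators, 2 of 6 had enough counts to be tested. ELF3 (ENSG00000163435, chromosome 1), an epithelial ETS transcription factor, was the only one with ample counts, at 186, 197 and 189.8 CPM in control and 219.97, 244 and 228 CPM in KO. It rose 1.21-fold, with no overlap (log2 fold change 0.28, SE 0.044, edgeR adjusted p 4.4e-06). ESRP2 (ENSG00000103067, chromosome 16) had 11, 4 and 18 counts in control and 11, 18 and 8 in KO, which overlapped (log2 fold change -0.24, SE 0.36, edgeR adjusted p 0.57).

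Counts were near zero for the rest, so the ratios given here are of summed counts scaled to library size, with 95% exact intervals that cover counting error only. ESRP1 (ENSG00000104413, chromosome 8), an epithelial splicing factor, had 1, 1 and 1 counts in control and 11, 13 and 8 in KO, a KO to control ratio of 7.98 (2.50 to 40.7). GRHL2 (ENSG00000083307, chromosome 8), a Grainyhead-like activator of CDH1, had 1, 0 and 0 counts in control and 4, 8 and 2 in KO, a ratio of 10.5 (1.59 to 442.7). OVOL2 (ENSG00000125850, chromosome 20), a repressor of ZEB1, had no count in control and 3, 7 and 2 counts in KO. Against a floor of 3 counts over the control group this was at least 2.99-fold higher. With no expression filter, the fit called ESRP1, GRHL2 and OVOL2 higher in KO (edgeR adjusted p 0.00011, 0.019 and 0.0058). All stayed under 0.5 CPM in each KO library. The edgeR adjusted p of that fit differed from the main fit, being far smaller for PKP3 (1.8e-06 against 0.022) and SPINT2 (1.1e-141 against 7.3e-06). For CLDN7 (0.26 against 0.16) and ESRP2 (0.73 against 0.57) it was larger. Calls made without the filter are therefore not on a par with those of the main fit. OVOL1 (ENSG00000172818, chromosome 11) had 1, 1 and 1 counts in control and 2, 1 and 2 in KO, with a ratio of 1.25 (0.242 to 8.03), and no difference was detectable at this depth. The ESRP1 to ESRP2 count ratio went from 0.0909, 0.250 and 0.0556 to 1.00, 0.722 and 1.00 (exact permutation p = 0.10).

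Other regulators of epithelial genes were mixed, with 5 (41.7%) higher and 4 (33.3%) lower among 12 tested of 21 listed. The background was 32.8% and 30.0%, and the median log2 fold change of these 12 was 0.13. FOXA1, a pioneer factor of endoderm-derived epithelia, rose from 16.6 ± 0.656 to 73.9 ± 2.23 CPM (SD, n = 3; log2 fold change 2.16, SE 0.057). EHF, an ETS factor related to ELF3, rose from 14.1 ± 0.929 to 46.9 ± 1.502 CPM (log2 fold change 1.72, SE 0.063). GRHL1, TFAP2C and OVOL3 fell by 1.11, 0.73 and 0.82 on the log2 scale. GRHL1 is on chromosome 2, and against its median the log2 fold change was -0.58.

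Of the 12 EMT transcription factors, 9 were tested, with 3 (33.3%) higher and 3 (33.3%) lower, shares near the background of 32.8% and 30.0%. Their median log2 fold change was -0.016, or 0.012 when libraries were scaled by total count only. ZEB2 had 212, 169 and 242 counts in control and 43, 96 and 54 in KO, from 8.88 ± 0.519 to 2.08 ± 0.287 CPM (log2 fold change -2.11, SE 0.12, edgeR adjusted p 8.7e-15). ZEB1 fell from 37.9 ± 2.58 to 27.1 ± 1.59 CPM (log2 fold change -0.49) and TWIST2 from 4.42 ± 0.959 to 2.31 ± 0.198 CPM (-0.93). ZEB2 and TWIST2 lie on chromosome 2, and against its median of -0.54 their log2 fold changes were -1.57 and -0.39. SNAI2, which encodes SLUG, rose from 0.297 ± 0.116 to 2.86 ± 0.545 CPM (log2 fold change 3.16, SE 0.26, edgeR adjusted p 2.5e-11). With 9, 3 and 10 control counts it reached the filter through its KO libraries only, and without it 2 factors were called higher. SNAI3 and TCF4 rose by 0.68 and 0.36 on the log2 scale. SNAI1, TWIST1 and TCF3 had log2 fold changes of -0.49, 0.34 and -0.016 that did not pass (edgeR adjusted p 0.082, 0.066 and 0.86). FOXC2, GSC and PRRX1 had 25, 8 and 4 counts in all control libraries and 21, 34 and 10 in all KO libraries, and were not tested. CDH1 thus rose in libraries where ZEB2 and ZEB1 fell and SNAI2 rose.

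Mesenchymal markers were again of both kinds, with 5 (45.5%) higher and 3 (27.3%) lower among 11 tested of 17. The background was 32.8% and 30.0%, and the median log2 fold change of the markers was 0.21. COL3A1, called higher, reached the filter through its KO libraries only, and the other 10 markers gave 4 higher and 3 lower. VIM, the intermediate filament of mesenchymal cells, was at 381 ± 6.96 CPM in control and 367 ± 20.7 CPM in KO, with a log2 fold change of -0.055 (edgeR adjusted p 0.28). FN1, a matrix glycoprotein whose gene is on chromosome 2, and THY1 fell by 2.54 and 2.90 on the log2 scale, and FN1 had a log2 fold change of -1.996 against its chromosome's median. CDH2, which encodes N-cadherin, rose from 31.2 ± 1.32 to 51.7 ± 2.11 CPM (log2 fold change 0.73), and MMP2 and SPARC rose by 3.07 and 2.65 on the log2 scale. E-cadherin and N-cadherin transcripts therefore both rose. The summed CPM of the 17 markers was 1286 to 1318 in control and 858 to 866 in KO libraries, and 2 of them had no count in any library. Such a sum is weighted to the most abundant markers, and more of the tested markers were called higher than lower.

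The surface protease system consists of matriptase, encoded by ST14, and its Kunitz-type inhibitors SPINT1 and SPINT2. SPINT2 (ENSG00000167642, chromosome 19) was at 52.7, 68.0 and 68.1 CPM in control and 171, 195 and 191 CPM in KO, with a log2 fold change of 1.57 (with SE 0.11, edgeR adjusted p 7.3e-06). Against the median of chromosome 19 its log2 fold change was 1.22. SPINT1 (ENSG00000166145, chromosome 15) was at 0.722, 0.718 and 0.756 CPM in control and 1.35, 1.30 and 1.51 CPM in KO, a smaller rise of 0.89 on the log2 scale (SE 0.23, edgeR adjusted p 0.0012). The protease itself, ST14 (ENSG00000149418, chromosome 11), had 5, 5 and 9 counts in control and 4, 20 and 4 in KO. It was not tested, its CPM ranges overlapped, and without a filter its log2 fold change was 0.17 (edgeR adjusted p 0.84). The SPINT1 to SPINT2 count ratio went from 0.0137, 0.0106 and 0.0111 to 0.00790, 0.00666 and 0.00791 (exact permutation p = 0.10). The ST14 to SPINT1 ratio overlapped between genotypes (exact permutation p = 0.20).

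MUC1 (ENSG00000185499, chromosome 1), a membrane mucin of apical surfaces, had 8, 22 and 20 counts in control and 39, 91 and 33 in KO. In CPM these were 0.340, 1.21 and 0.687 against 1.70, 1.85 and 1.47, with control replicate 1 the lowest and under the filter's level. The log2 fold change was 1.27 (SE 0.27, edgeR adjusted p 0.00021).

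**Figure D3:**
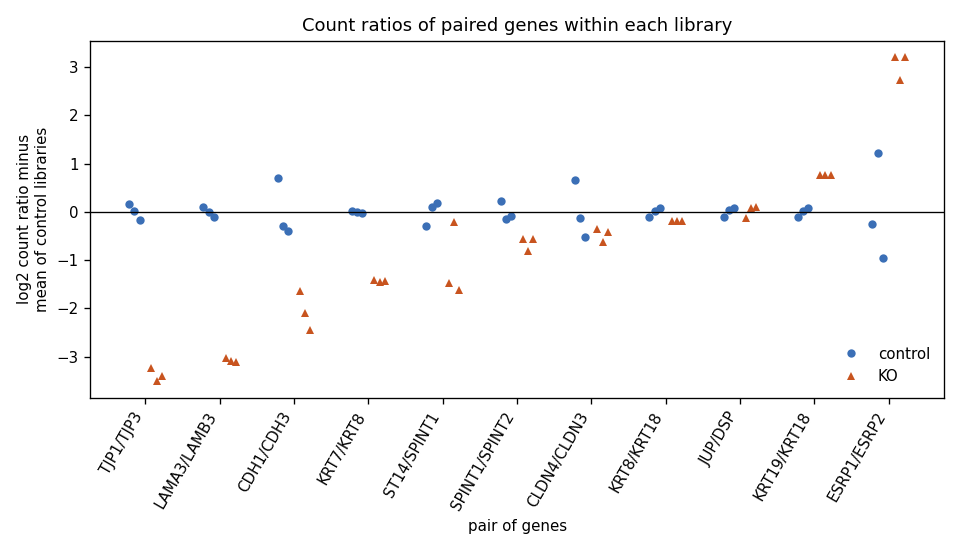
The log2 count ratio of 11 gene pairs in each library, minus the mean of the control libraries for that pair, with control libraries as circles and KO libraries as triangles. In KO, TJP1/TJP3 and LAMA3/LAMB3 lie more than 3 log2 units lower, JUP/DSP lies around 0, and ESRP1/ESRP2, which rests on few counts, lies higher.

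LAMA3 and LAMB3 encode the α and β chains of an epithelial laminin that anchors cells to the basement membrane through hemidesmosomes. They changed in opposite directions. LAMA3 (ENSG00000053747, chromosome 18) was at 116, 125 and 119 CPM in control and at 55.7, 54.0 and 51.7 CPM in KO, a log2 fold change of -1.15 (with SE 0.048, edgeR adjusted p 5.6e-18). LAMB3 (ENSG00000196878, chromosome 1) was at 13.9, 16.0 and 16.6 CPM in control and at 58.1, 59.4 and 58.0 CPM in KO, a log2 fold change of 1.92 (with SE 0.062, edgeR adjusted p 2.1e-20). The LAMA3 to LAMB3 count ratio was 8.32, 7.79 and 7.18 in control and 0.957, 0.909 and 0.892 in KO, 8.43-fold lower in KO with no overlap (exact permutation p = 0.10).

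The windows before the starts of these opposed chains are shown as above, with the E-box letters in capitals. Each holds 1 match, at 73 bases before the start in LAMA3 and 218 bases before it in LAMB3.
LAMA3, chr18:23872770-23873019, plus strand: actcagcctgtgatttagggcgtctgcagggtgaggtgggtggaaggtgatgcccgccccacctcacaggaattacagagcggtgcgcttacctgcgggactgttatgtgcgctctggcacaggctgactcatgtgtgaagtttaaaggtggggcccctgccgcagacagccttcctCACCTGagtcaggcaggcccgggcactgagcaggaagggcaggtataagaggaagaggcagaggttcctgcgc
LAMB3, chr1:209652426-209652675, minus strand: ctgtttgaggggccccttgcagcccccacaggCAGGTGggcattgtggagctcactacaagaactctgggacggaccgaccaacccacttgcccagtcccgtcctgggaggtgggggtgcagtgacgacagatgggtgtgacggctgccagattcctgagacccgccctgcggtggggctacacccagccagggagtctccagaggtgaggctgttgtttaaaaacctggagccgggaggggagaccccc
The other 2 LAMB3 windows hold no match before the start.

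Among 19 other laminin, collagen IV and hemidesmosome genes, 17 were tested, and their median log2 fold change was 0.44. Of these, 13 (76.5%) were higher and 3 (17.6%) lower, where the background was 32.8% and 30.0%. LAMB4, called lower, reached the filter through its control libraries only, and the other 16 genes gave 13 higher and 2 lower. COL17A1, a transmembrane collagen of hemidesmosomes, rose from 1.28 ± 0.128 to 7.08 ± 0.856 CPM (log2 fold change 2.50). NID2, a nidogen of the basement membrane, rose by 1.66 on the log2 scale. LAMB2 and LAMA5, chains of other laminins, rose by 0.84 and 0.73 on that scale. COL4A1, a chain of basement membrane collagen, fell by 1.22 on the log2 scale, from 74.0 ± 2.89 to 31.9 ± 2.42 CPM.

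**Figure D4:**
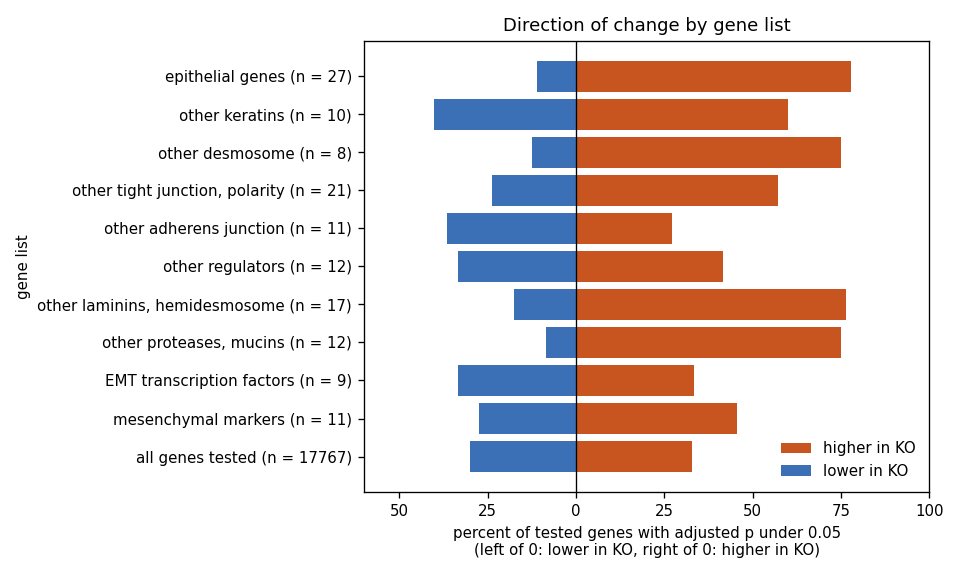
The percent of tested genes called higher (right) or lower (left) in KO for the epithelial genes, for lists of related genes and for all genes tested, with the number tested in each label. The epithelial genes have 77.8% higher and 11.1% lower, and all genes tested have 32.8% and 30.0%. Some genes in these lists reached the filter through their KO libraries or their control libraries only.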

How the data were processed

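RNA-seq libraries came from 3 control and 3 SETDB1 KO samples; the other samples of the series were not used here, since no gene annotation of their build (hg19) was at hand. The deposited gene table holds raw counts per gene, and the libraries were made with a kit that keeps strand, per the labels' protocols; STAR 2.6.1c and edgeR 3.30.0 are named in the submitters' processing notes without a role, and the counting tool and strand option are not given in the sources used here. Every library column was mapped to a sample (0 left over). Symbols were found for 58642 (93.8%) of 62486 IDs. The chromosome of a gene was read from RefSeq (GRCh38.p14), with no coordinates taken.

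Counts were fitted with edgeR 4.0.16 in R 4.3.3 (TMM, filterByExpr, robust quasi-likelihood test, genotype only), with Benjamini-Hochberg adjustment over all genes tested and a threshold of 0.05; the SE is the log2 fold change over the square root of F. The fit was tested on simulated counts. Replicate pairs of a genotype differed by more than sampling noise (chi-square per degree of freedom 1.56 to 5.85), so none was merged. Ratios used scipy 1.17.1. Alternatives were RLE, upper quartile and library size scaling, no filter and a CPM filter, DESeq2 1.42.0, limma 3.58.1 (voom), a replicate block, chromosome centring and leaving out each library. The members and lists were chosen with earlier results of these data known. All members were described; in each companion list up to 5 genes were named, those with an adjusted p under 0.05, a mean CPM of at least 1 and the largest changes, and every EMT factor with at least 10 counts. CTNNB1, CTNND1, VIM and the uncalled markers in the closing section were added after their values were seen. Copies and antisense genes of members were named where the table holds them; CDH3-AS1 had 1 count in all.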

Additional observations from a re-analysis of the deposited data

How the results depend on the processing

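The calls of the epithelial genes changed little with the processing. Under 14 other fits, 19 to 24 genes were higher and 3 lower, and 12 to 16 were at least 2-fold higher and 1 at least 2-fold lower; the fit with no filter, which tested all 33, gave 24 and 16. Leaving out each library gave 19 to 21 higher and 3 lower, 12 to 13 at least 2-fold higher and 1 at least 2-fold lower, and medians of 0.92 to 0.96. The median of 0.95 became 0.91 under upper quartile scaling, 0.99 with no filter and 1.10 with a CPM filter that tested 24 genes. The replicate block gave 21 higher, 3 lower, 13 at least 2-fold higher and 1 at least 2-fold lower and changed no call of a tested gene. Replicate numbers did not pair the libraries (correlations of same-numbered deviations 0.11, 0.064 and 0.047). Calls were lost for KRT7 and PKP3, as given in the report, and CDH3 was not tested under the CPM filter. The sign turned for OCLN (-0.0031 under upper quartile scaling, and -0.010 to 0.10 leaving out each library), ESRP2 (-0.49 to 0.12, positive without control replicate 3), KRT7 (-0.27 against its chromosome) and the JUP to DSP ratio (log2 change 0.018, or -0.033 to 0.093 leaving out each library). None of these but KRT7 was called, and the cause was not tested. Of all tested genes called, 52.2% were higher, against 55.7% under library size only and 48.4% under upper quartile scaling. Low counts limit what can be said of CLDN7, ESRP1, ESRP2, GRHL2, OVOL1, OVOL2, RAB25 and ST14.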

Other observations

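Among 25 surface protease and mucin genes outside the epithelial list, 12 were tested. Of these, 9 (75%) were higher and 1 (8.33%) lower, where the background was 32.8% and 30.0%. The median log2 fold change was 1.55 over all 12, including genes that passed the filter only through KO. Of the 12 tested genes, 4 reached the filter through their KO libraries only, and among the other 8 genes 5 were higher and 1 lower. The genes named here are the 5 with the largest changes among those called with a mean CPM of at least 1. SERPINB5, left out by that rule, had a log2 fold change of 7.43 and reached the filter through its KO libraries only. MUC5B, a gel-forming airway mucin, rose from 10.0 ± 1.04 to 136.8 ± 11.6 CPM (SD, n = 3), with a log2 fold change of 3.77 (with SE 0.074, edgeR adjusted p 3.9e-21). MUC13, a membrane mucin of the gut, rose from 5.55 ± 0.422 to 65.2 ± 2.36 CPM (log2 fold change 3.56). MUC2, the gel-forming mucin of the intestine, had 1, 1 and 6 counts in control and 55, 115 and 50 in KO. MUC16 had 2, 3 and 1 counts in control and 68, 167 and 75 in KO, and both it and MUC2 were tested only through their KO libraries. SLPI, a secreted protease inhibitor, rose from 0.927 ± 0.269 to 2.95 ± 0.252 CPM.

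Markers of mature lung epithelium were mostly near zero in both genotypes, and 2 of 15 were tested. ABCA3, a lipid transporter of alveolar type II cells, rose from 64.7 ± 3.57 to 83.3 ± 2.65 CPM (log2 fold change 0.37) and NAPSA by 0.56 on the log2 scale. NKX2-1, the lung lineage factor, had 0 counts in control and 1, 2 and 2 in KO, and SFTPA1, PDPN and SCGB3A2 had no count at all. Of 10 markers of immune and endothelial cells, 9 were in the table, with a summed CPM of 5.86 to 6.25 in control and 8.29 to 10.5 in KO. PTPRC had 2 counts in all and CD3E none. Of these markers 2 were tested. CD14, a monocyte marker, had 5.68 ± 0.176 CPM in control and 4.76 ± 0.699 CPM in KO (log2 fold change -0.24, edgeR adjusted p 0.070), and was called lower under upper quartile scaling. CDH5, which encodes the endothelial cadherin, rose from 0.289 ± 0.0835 to 4.53 ± 0.670 CPM (log2 fold change 3.95, SE 0.23, edgeR adjusted p 1.5e-14), with control libraries under the filter's level.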
